A study of Homo sapiens with 4 samples.

Results

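The genes described here encode 10 surface or secreted ligands with which Hodgkin lymphoma cells can restrain or stimulate neighbouring immune cells: CD274, PDCD1LG2, CD80, CD86, ICOSLG, CD58, LGALS1, TGFB1, CD47 and HLA-G. They were chosen by name as the PD-1 ligands and further costimulatory or inhibitory ligands of these cells, and all of their probe sets were used. The 10 genes are represented by 34 probe sets, of 19775 genes and 41097 probe sets that carry 1 gene symbol. KM-H2, an established line derived from Hodgkin lymphoma, was profiled after siRNA knockdown of PTPN1 (2 arrays) and with a non-silencing control (2 arrays). The line was grown under its supplier's standard conditions, and the sources used here give no siRNA sequence, dose or time of harvest. The series calls the arrays of a group technical replicates, so SDs, SEs and p-values measure the spread between arrays and not between cultures.

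In Hodgkin lymphoma the tumour cells are a minority among T cells and macrophages, and ligands on their surface decide in part how those cells respond. PD-L1 and PD-L2 engage the inhibitory T cell receptor PD-1, while CD80 and CD86 engage CD28, which stimulates T cells, and CTLA-4, which restrains them. CD58 binds CD2 on T and natural killer cells, ICOS ligand binds ICOS, and CD47 signals macrophages not to engulf the cell. PTPN1 encodes a tyrosine phosphatase that acts on JAK kinases, and PD-L1 is a known target of JAK-STAT signalling.

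Values are log2 expression made by the authors with RMA, and a difference is knockdown minus non-silencing on that log2 scale. Each array's median over all probe sets lay between 5.10 and 5.12, and a probe set under it is called dim here. The brightest probe set of PTPN1 (202716_at) read 7.002 and 7.36 in knockdown arrays 1 and 2, against 8.16 and 8.40 in the non-silencing arrays. The other 3 PTPN1 probe sets were dim in all 4 arrays and differed by -0.07 to 0.01. All 10 Hodgkin cell markers, among them TNFRSF8 (CD30), were above the median in every array, with summed levels of 95.1 and 91.8 in the knockdown arrays and 91.4 and 90.2 in the non-silencing arrays. Of 7 measured B cell markers 4 were above it in every array, as were 4 of 7 T cell markers (CD3D at 9.76 to 10.36, while CD3E was dim), 2 of 6 myeloid, 2 of 6 fibroblast and 2 of 5 epithelial markers. The summed T cell markers were 41.3 and 40.7 in the knockdown arrays, against 40.8 and 41.2 in the non-silencing arrays. In RNA from a whole culture, fewer cells of a type and less RNA per cell cannot be told apart.

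None of the 10 genes passed the test between knockdown and non-silencing arrays. In limma (Benjamini-Hochberg adjustment over 19775 genes) every member had an adjusted p of 0.99996, and 0 of 10 were called, against 0.00% of all genes. PTPN1, the silenced gene, was not called either, with a difference of -1.10 and a limma adjusted p of 0.769. The lack of a call therefore cannot show that a gene was unchanged. Before adjustment 1 member, CD58, lay under the 0.05 threshold in limma, as did 509 of all genes. No member differed by 2-fold, which 0.592% of all genes did. The lowest difference was -0.43, for CD58, and the highest 0.44, for CD47. An exact permutation of 2 against 2 arrays cannot give a two-sided p below 0.333, so no single value could pass such a test.

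The groups of arrays did not overlap for 5 of the 10 genes at their brightest probe set. CD47, CD80 and HLA-G were higher in both knockdown arrays, as were 12.4% of all genes. CD58 and LGALS1 were lower in both, as were 15.0% of all genes. The remaining 5, CD274, PDCD1LG2, CD86, ICOSLG and TGFB1, had overlapping groups, and for each of them the difference between the arrays numbered 1 and that between the arrays numbered 2 had opposite signs. Over the 34 probe sets, 11 were higher with groups apart (13.9% of all probe sets) and 6 were lower with groups apart (14.1%). Counted within the array numbers, 14 were higher in both (29.4% of all probe sets), 8 were lower in both (27.5%) and 12 were mixed.

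**Figure D1:**
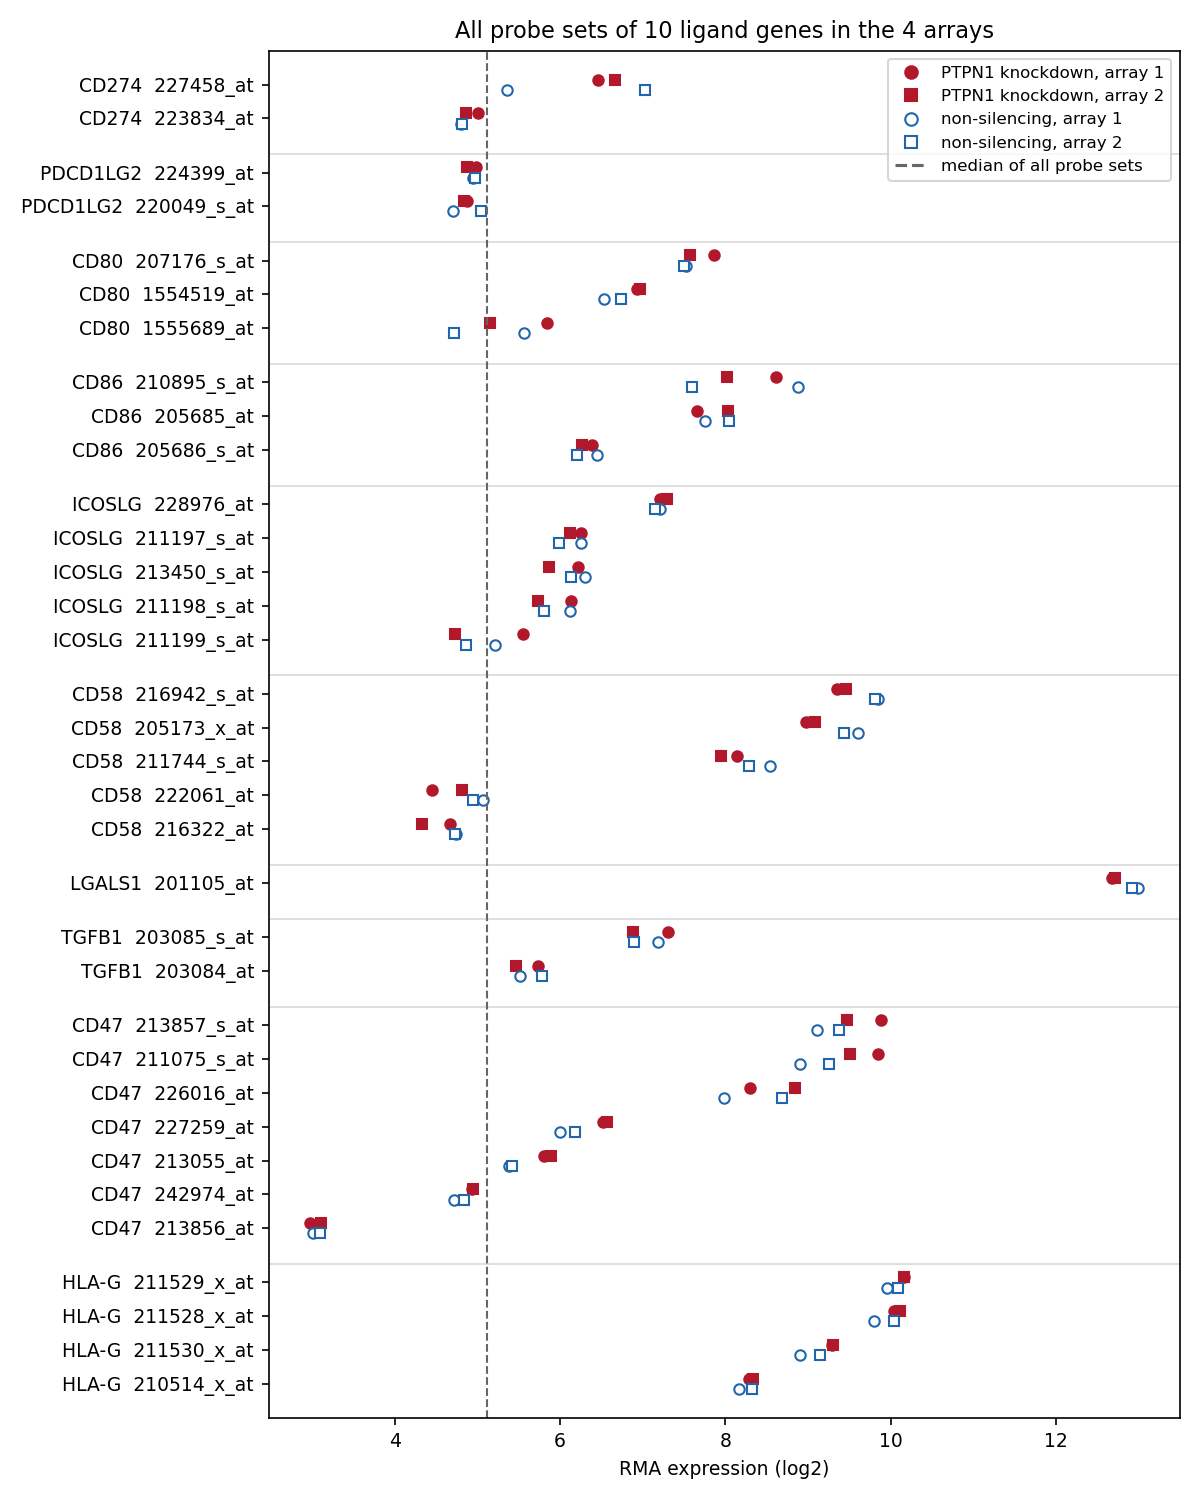
RMA expression on the log2 scale (horizontal axis) of each of the 34 probe sets, grouped by gene, with filled red symbols for PTPN1 knockdown arrays and open blue symbols for non-silencing arrays (circles for number 1, squares for number 2). The 5 CD58 probe sets lie to the left in knockdown, 5 of 7 CD47 probe sets lie to the right, and the open symbols of CD274 probe set 227458_at lie 1.67 apart. The dashed line marks the mean of the 4 array medians.

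Promoter sequence is shown for 3 members: CD274, the PD-1 ligand known to respond to JAK-STAT signalling, and CD58 and CD47, the members with the most probe sets whose groups were apart, in opposite directions. Each line holds the 250 bases before the RefSeq start, 5′ to 3′ on the gene's own strand, in build GRCh38.p14, at chr9:5450292-5450541 (plus strand) for CD274, chr1:116571027-116571276 (minus strand) for CD58 and chr3:108091032-108091281 (minus strand) for CD47. Capitals mark 3 motifs searched on both strands: the STAT-type GAS motif TTCNNNGAA, the interferon response motif GAAANNGAA and the GC box GGGCGG.
CD274: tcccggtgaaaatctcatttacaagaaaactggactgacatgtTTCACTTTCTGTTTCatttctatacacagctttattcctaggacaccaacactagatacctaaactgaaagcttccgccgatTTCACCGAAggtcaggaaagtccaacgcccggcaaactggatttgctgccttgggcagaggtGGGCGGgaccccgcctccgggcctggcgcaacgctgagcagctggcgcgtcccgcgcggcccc
CD58: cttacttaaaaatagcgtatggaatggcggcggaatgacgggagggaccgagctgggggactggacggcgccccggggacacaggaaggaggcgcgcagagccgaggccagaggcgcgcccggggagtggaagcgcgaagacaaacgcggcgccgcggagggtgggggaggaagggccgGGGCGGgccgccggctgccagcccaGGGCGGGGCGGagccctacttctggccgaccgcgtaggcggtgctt
CD47: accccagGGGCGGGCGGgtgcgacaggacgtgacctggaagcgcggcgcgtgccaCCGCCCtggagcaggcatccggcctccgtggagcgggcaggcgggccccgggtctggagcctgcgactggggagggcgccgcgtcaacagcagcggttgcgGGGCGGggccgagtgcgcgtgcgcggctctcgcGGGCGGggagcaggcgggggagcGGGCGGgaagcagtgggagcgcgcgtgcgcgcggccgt
Windows of RefSeq were matched for 8 of the 10 members, with several starts for CD86 and HLA-G. PDCD1LG2 and LGALS1 had no window and were not searched. Over all 35116 windows, which also take in the 50 bases after the start, the GAS motif was in 7.66%, the interferon response motif in 8.11% and the GC box in 45.0%. Among the 8 members with a window the first and second motifs were found in CD274 only. The GAS match started 125 bases before the start, and a pair of overlapping interferon response matches lay on the other strand at 207 and 201 bases. The CD58 window held 3 GC boxes, of which 2 overlap, and the CD47 window held 6. GC boxes were also found for CD274, ICOSLG, TGFB1 and HLA-G, so they are not particular to CD58 and CD47. A match is a description of the letters in these windows.

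CD274 encodes PD-L1, the ligand through which many tumours engage PD-1. Its brightest probe set (227458_at) read 6.46 and 6.67 in the knockdown arrays, against 5.36 and 7.03 in the non-silencing arrays. Both knockdown values lie between the non-silencing values, so the groups overlap and the mean difference of 0.37 (SE 0.54) rests on the low non-silencing array 1. Within the array numbers the difference was 1.10 for number 1 and -0.36 for number 2. Without non-silencing array 1 it was -0.46, and without non-silencing array 2 it was 1.21. The second probe set (223834_at) was dim, at 5.01 and 4.86 in the knockdown arrays and 4.80 and 4.81 in the non-silencing arrays, a difference of 0.13.

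PDCD1LG2, which encodes PD-L2, had no probe set above the median. Its probe set 224399_at read 4.98 and 4.87 in the knockdown arrays, against 4.94 and 4.97 in the non-silencing arrays. The groups overlap and the difference of -0.03 (SE 0.13) is smaller than the gap of 0.11 between the knockdown arrays. The other probe set (220049_s_at) differed by -0.02, from 0.17 within number 1 to -0.20 within number 2. RMA compresses differences among dim probe sets, so a change of this gene at low level could be missed here.

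CD274 and PDCD1LG2 are adjacent protein-coding genes on chromosome 9, in a region that is often gained in Hodgkin lymphoma. Of 15 listed genes around them, 8 had positive and 7 negative differences, with a median of 0.03, against -0.01 over all genes. Groups were apart for 3 higher genes, against 12.4% of all genes, and for 0 lower ones, against 15.0%. The 3 were RLN2, a relaxin hormone gene, RCL1, a factor of ribosome assembly, and KDM4C, a histone demethylase. RLN2 read 5.90 and 5.69 in the knockdown arrays, against 5.30 and 5.05 in the non-silencing arrays, a difference of 0.62 (SE 0.16). RLN2 has a close copy in its neighbour RLN1, which differed by 0.30 with overlapping groups, and probe sets may not separate them. The differences were 0.16 for KDM4C and 0.07 for RCL1, or 0.066 and 0.17 when averaged over probe sets. Without non-silencing array 1 KDM4C was 0.10. JAK2, the kinase gene of the region, differed by 0.10 with overlapping groups. None of the 15 was called (0.00% of all genes).

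Proteins that act on PD-L1 after translation were also measured. All 8 listed genes, among them CMTM6, which keeps PD-L1 on the cell surface, and SPOP, an adaptor of PD-L1 degradation, were above the median in every array. Groups were apart for 0 higher and 0 lower genes of the 8, against 12.4% and 15.0% of all genes. The median difference of the 8 was -0.04. CMTM6 read 11.97 and 12.13 in the knockdown arrays, against 11.93 and 12.15 in the non-silencing arrays.

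CD80 encodes B7-1, a ligand of CD28 and CTLA-4. All 3 of its probe sets were higher in knockdown within both array numbers, as were all probe sets in 5.56% of the 5508 genes with at least 3. The brightest (207176_s_at) read 7.87 and 7.57 in the knockdown arrays, against 7.52 and 7.50 in the non-silencing arrays. These groups do not overlap, but the difference of 0.21 (SE 0.15) is smaller than the gap of 0.29 between the knockdown arrays, and without knockdown array 1 it was 0.06. Probe set 1554519_at read 6.93 and 6.97 in the knockdown arrays, against 6.53 and 6.74 in the non-silencing arrays. Here the difference of 0.31 exceeds the gap within either group. The third probe set (1555689_at) differed by 0.36, with overlapping groups and array 2 as the lower in both.

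CD86, which encodes B7-2 and shares the receptors of CD80, differed more between array numbers than between groups. Its brightest probe set (210895_s_at) read 8.61 and 8.02 in the knockdown arrays, against 8.88 and 7.59 in the non-silencing arrays. Array 1 was the higher in both groups, by 0.59 in knockdown and by 1.28 in non-silencing cells, and the difference of 0.08 had an SE of 0.46. It was -0.27 within number 1 and 0.43 within number 2. Probe set 205685_at had array 2 as the higher in both groups and differed by -0.06, and 205686_s_at differed by 0.0045. For all 3 CD86 probe sets the arrays numbered 2 lay on 1 side of those numbered 1, as for 13 of the 34 member probe sets and 51.2% of all probe sets. Beta-actin control probe sets at the 3' end read above those at the 5' end, a measure of how intact the RNA was and how it was amplified, by 1.33 and 0.969 in knockdown arrays 1 and 2, and by 1.31 and 0.972 in non-silencing arrays 1 and 2. Its part in these values was not tested.

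ICOSLG, the ligand of the T cell receptor ICOS, showed no shared direction over its 5 probe sets. The brightest (228976_at) read 7.21 and 7.30 in the knockdown arrays, against 7.21 and 7.15 in the non-silencing arrays. The groups overlap at this probe set by less than 0.01, and the difference was 0.07 (SE 0.13). It was 0.028 without knockdown array 2, 0.041 without non-silencing array 2 and 0.12 without knockdown array 1, and the mean of the 5 probe sets differed by 0.0054. The 5 differences ran from -0.18 to 0.10, all with overlapping groups, and 4 of the 5 probe sets were lower in the arrays numbered 2.

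CD58 encodes LFA-3, the adhesion ligand by which T and natural killer cells grip their targets through CD2. Each of its 5 probe sets was lower in both knockdown arrays than in both non-silencing arrays. The brightest (216942_s_at) read 9.35 and 9.46 in the knockdown arrays, against 9.85 and 9.81 in the non-silencing arrays. The gap within a group was at most 0.12, and the difference was -0.43 (SE 0.13), or 74.4% of the signal. Within the array numbers it was -0.50 and -0.35, and without 1 array it ranged from -0.49 to -0.37.

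Probe set 205173_x_at of CD58 read 8.97 and 9.09 in the knockdown arrays, against 9.60 and 9.44 in the non-silencing arrays. Probe set 211744_s_at read 8.14 and 7.95 in the knockdown arrays, against 8.54 and 8.29 in the non-silencing arrays. Both pairs of groups are apart, with differences of -0.49 and -0.37. The dim probe sets 222061_at and 216322_at differed by -0.38 and -0.24. For 4 of the 5 the difference exceeded the gap between arrays of a group, a share that was not counted over all probe sets. Of the 1337 genes with at least 5 probe sets, CD58 was the 1 gene with every probe set lower and groups apart, a share of 0.0748%. This share, like those given for CD80 and CD47, uses the gene's own number of probe sets and direction as its criterion. It therefore cannot measure how unusual the gene is. Probe sets of a gene read the same transcripts on the same 4 arrays, so they are not independent replicates. The suffixes _x_at and _s_at mark probe sets that may also bind other sequences or several transcripts.

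**Figure D2:**
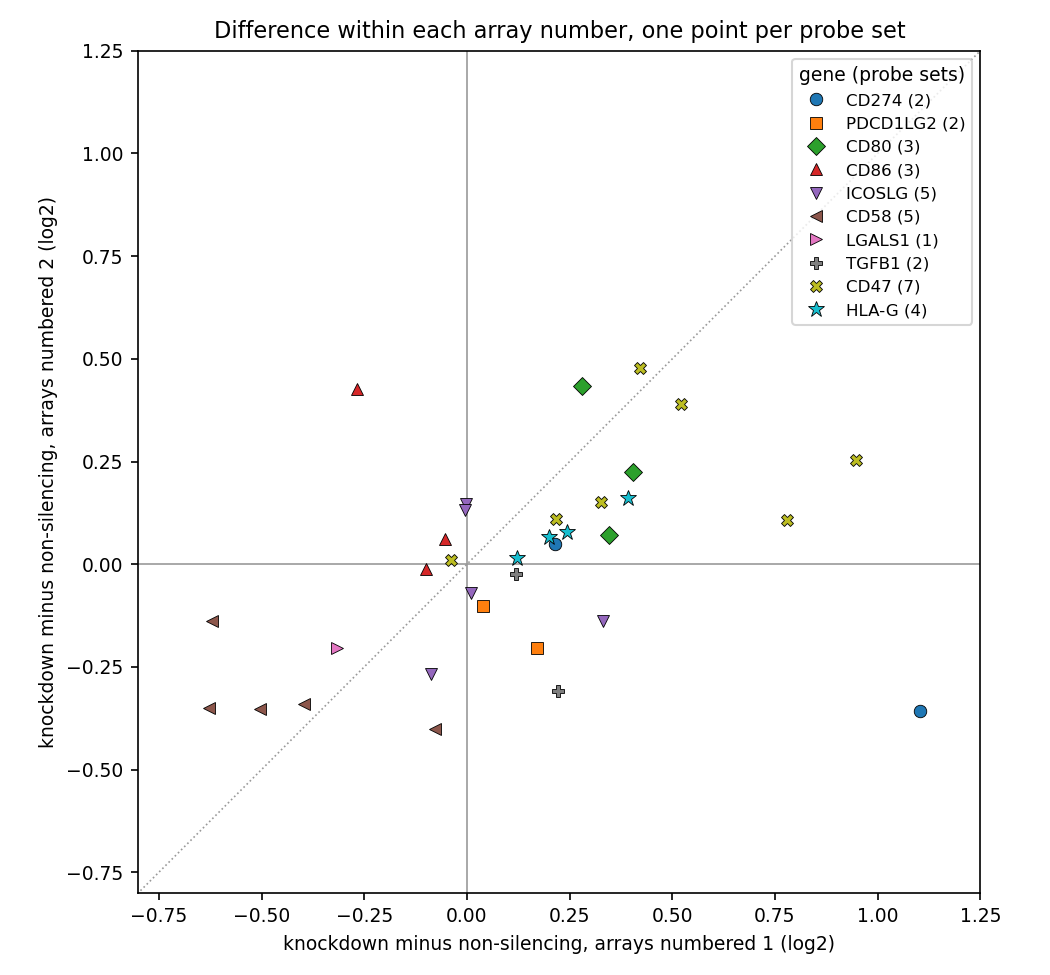
Knockdown minus non-silencing on the log2 scale between the arrays numbered 1 (horizontal axis) and between those numbered 2 (vertical axis), with a point for each probe set. The 5 CD58 probe sets and LGALS1 lie in the lower left, CD80, HLA-G and 6 of 7 CD47 probe sets in the upper right, and CD274 probe set 227458_at at 1.10 and -0.36.

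LGALS1 encodes galectin-1, a secreted sugar-binding protein of Hodgkin cells that is known to dampen T cell responses. Its only probe set (201105_at) read 12.68 and 12.72 in the knockdown arrays, against 13.00 and 12.92 in the non-silencing arrays. Groups were apart, and the gap within a group was at most 0.08. The difference was -0.26 (SE 0.12), or 83.5% of the signal, and was -0.32 and -0.20 within the array numbers. Leaving out 1 array moved it between -0.30 and -0.22.

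TGFB1, which encodes the secreted suppressive cytokine TGF-beta 1, read 7.31 and 6.88 in the knockdown arrays, against 7.19 and 6.90 in the non-silencing arrays (203085_s_at). The groups overlap, and the difference of 0.05 (SE 0.20) is far smaller than the gap of 0.43 between the knockdown arrays. Its other probe set (203084_at) differed by -0.04. Of 11 measured genes that encode related cytokines or bind and activate latent TGF-beta, 3 had positive and 8 negative differences, with a median of -0.08 and none called. LTBP4, a latent TGF-beta binding protein gene, and TGFB3, a related cytokine gene, were lower with groups apart, as were 15.0% of all genes. Their differences were -0.22 (SE 0.13) for LTBP4 and -0.19 (SE 0.13) for TGFB3. Without knockdown array 1 they were -0.12 and -0.13. Averaged over its probe sets TGFB3 was -0.11. With the mean of its 4 probe sets LTBP4 was 0.04. LTBP4 probe sets 213176_s_at and 227989_at went the other way, higher with groups apart, with differences of 0.27 and 0.21. LTBP4 probe set 210628_x_at was lower with groups apart, with a difference of -0.09.

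CD47 encodes the surface protein that tells macrophages not to engulf the cell, through their receptor SIRP-alpha. Of its 7 probe sets, 6 were higher in knockdown within both array numbers and 5 had groups apart. The brightest (213857_s_at) read 9.89 and 9.48 in the knockdown arrays, against 9.11 and 9.37 in the non-silencing arrays. The groups are apart by 0.11 between the arrays numbered 2 and the difference was 0.44 (SE 0.19), or 136% of the signal. It was 0.78 within number 1 and 0.11 within number 2, and without knockdown array 1 it was 0.24.

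Other CD47 probe sets gave steadier values. Probe set 227259_at read 6.52 and 6.57 in the knockdown arrays, against 5.997 and 6.18 in the non-silencing arrays. Probe set 213055_at read 5.80 and 5.89 in the knockdown arrays, against 5.38 and 5.41 in the non-silencing arrays. Each differed by 0.45, several times the gap within either group for the second and more than the gap of 0.18 for the first. Probe set 211075_s_at differed by 0.60, the highest of the 34 probe sets. The dim 242974_at differed by 0.16 with groups apart, 226016_at by 0.24 with overlapping groups, and 213856_at, below the lower quartile of every array, by -0.01. At least 5 probe sets were higher with groups apart in 11 of the 303 genes with 7 or more (3.63%).

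**Figure D3:**
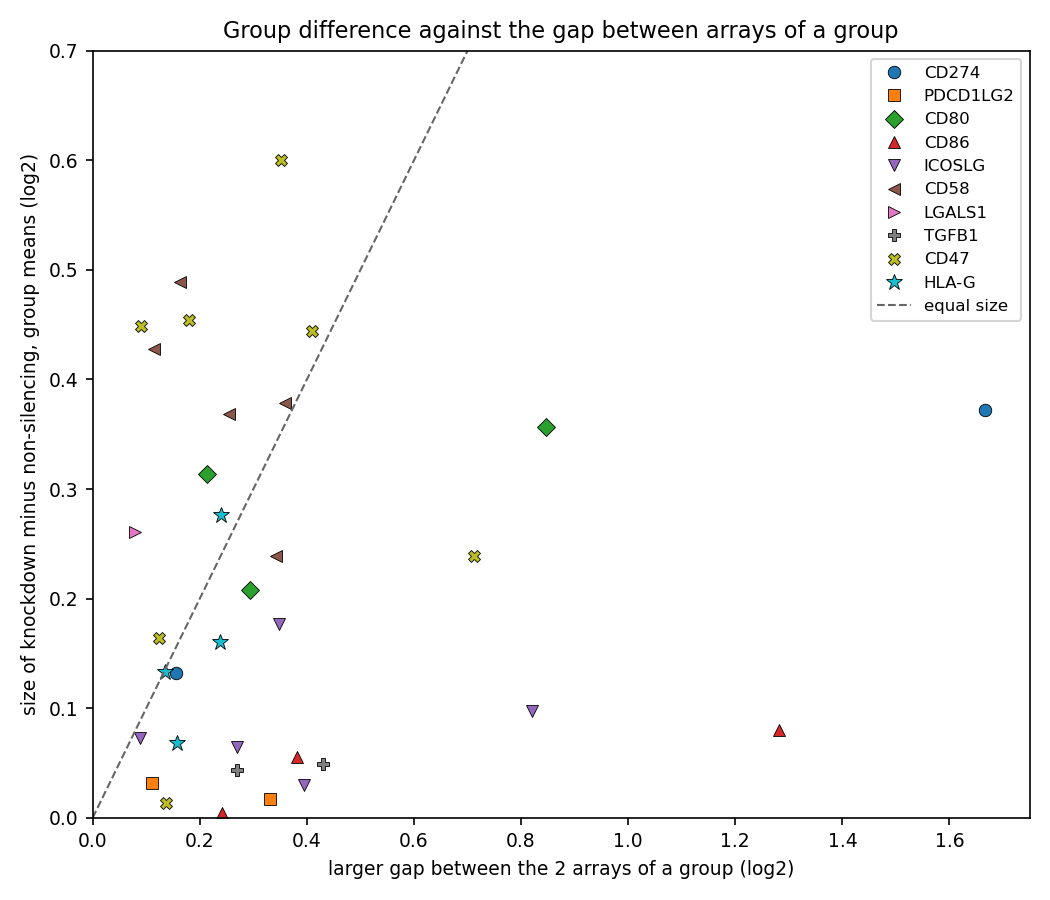
Size of the difference between group means (vertical axis, log2) against the larger of the gaps between the arrays of a group (horizontal axis, log2), with a point for each of the 34 probe sets. Above the dashed line of equal size lie 12 points: 5 of CD47, 4 of CD58 and 1 each of LGALS1, CD80 and HLA-G. The share of all probe sets above this line was not counted.

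HLA-G encodes a non-classical class I molecule that can inhibit immune cells and has LILRB1, LILRB2 and KIR2DL4 as receptors. All 4 of its probe sets carry the _x_at suffix, and their sequence is close to that of other class I genes, so they may not measure HLA-G apart from its relatives. The brightest (211529_x_at) read 10.16 and 10.16 in the knockdown arrays, against 9.96 and 10.09 in the non-silencing arrays. The difference was 0.13 (SE 0.13), about the size of the gap of 0.14 between the non-silencing arrays. It was 0.065 without non-silencing array 1 and 0.20 without non-silencing array 2. All 4 probe sets were higher in knockdown within both numbers, by 0.07 to 0.28, and 3 had groups apart. The 13 probe sets of HLA-B, HLA-C, HLA-E and HLA-F differed by 0.16 to 0.34, with all 13 higher within both numbers and 11 with groups apart. Over all probe sets 29.4% were higher within both numbers and 13.9% were higher with groups apart.

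Further ligands, with the enzyme gene IDO1 listed among them, were set beside the members. Of 20 listed genes 9 had positive and 11 negative differences, with a median of -0.07, and groups were apart for 4 higher and 6 lower genes (12.4% and 15.0% of all genes). None was called. CEACAM1, an inhibitory adhesion molecule, read 6.52 and 7.82 in the knockdown arrays, against 4.82 and 5.63 in the non-silencing arrays. Groups were apart, with a difference of 1.94 (SE 0.50). Array number 1 gave 1.70 and number 2 gave 2.18. The other 4 CEACAM1 probe sets were dim in all 4 arrays and differed by -0.14 to 0.48. With the mean of all 5 the difference was 0.53.

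CD276, which encodes the B7 family member B7-H3, read 7.14 and 6.82 in the knockdown arrays, against 6.02 and 5.83 in the non-silencing arrays. The difference was 1.06 (SE 0.17, limma adjusted p = 0.677), and 1.12 and 0.99 within the array numbers. Its other 2 probe sets differed by 0.31 and -0.17, and the mean of all 3 by 0.40. HLA-E, a ligand of natural killer cell receptors, differed by 0.25 and NCR3LG1, the ligand of an activating receptor of those cells, by 0.29, from dim values. None of the members reached the size of CEACAM1 or CD276.

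The receptors of these ligands were mostly dim in this tumour cell line. The list of 21 measured genes also holds THBS1, which encodes a secreted ligand of CD47 and not a receptor. Of the 21, 13 were below the median in all 4 arrays, among them CD28 and THBS1, and 5 were above it in all 4. Differences were positive for 6 and negative for 15, with a median of -0.07, and groups were apart for 3 higher and 3 lower genes, shares close to the 12.4% and 15.0% of all genes. TIGIT, an inhibitory receptor of T and natural killer cells, read 4.91 and 4.96 in the knockdown arrays, against 5.30 and 5.36 in the non-silencing arrays, a difference of -0.40 (SE 0.12). CD96 (-0.19), SIGLEC10 (-0.14) and KIR2DL4 (0.18) also had groups apart, all from dim values. Leaving out 1 array gave -0.31 to -0.080 for CD96, -0.21 to -0.065 for SIGLEC10 and 0.066 to 0.30 for KIR2DL4. Averaged over probe sets the differences were -0.33 for CD96, -0.077 for SIGLEC10 and 0.017 for KIR2DL4, whose other 2 probe sets differed by -0.02 and -0.11. PDCD1 was listed but is not analysed here.

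**Figure D4:**
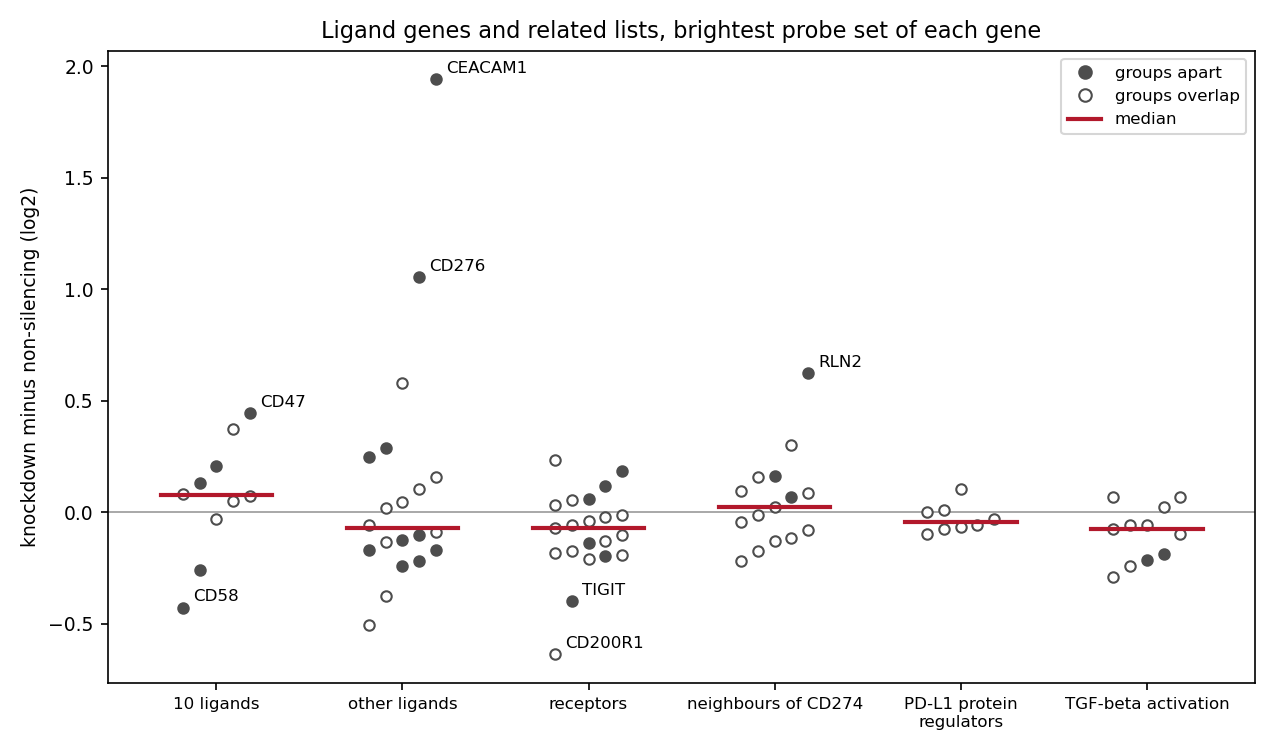
Knockdown minus non-silencing on the log2 scale (vertical axis) for the brightest probe set of each gene in the 10 ligands and 5 related lists, filled where the groups are apart and open where they overlap, with the list's median as a red bar. The medians lie between -0.08 and 0.08, while CEACAM1 at 1.94 and CD276 at 1.06 stand highest.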

How the data were processed

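Total RNA of KM-H2 cells was measured on 4 Affymetrix arrays, with biotinylated cRNA made by 2-cycle amplification per the labels' protocols, which can favour 3' ends. The deposited values are log2 values that the authors made with RMA, per the submitters' processing notes. RMA corrects background, quantile-normalizes arrays and summarises probes, which hides any shift of all RNA in a cell. The sources used here name no software or version for it.

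Of 54675 probe sets, 41097 had 1 gene symbol in the platform annotation, with symbols updated through the RefSeq gene table of GRCh38.p14. Another 1801 had several symbols and 11777 none, and were not used for named genes. For each of the 19775 genes the brightest probe set by its mean over the arrays was taken. Values were used as deposited. Groups were taken from the titles, and compared in limma 3.58.1 (R 4.3.3) with lmFit and eBayes, two-sided, without covariates, at an adjusted p threshold of 0.05. The same fit over all 41097 probe sets gave every member probe set an adjusted p of 0.99996. The method was tested on simulated data. The number of arrays limits the precision.

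The members, lists and tests were chosen with earlier results of these data known. From each list up to 4 genes were named, those with the largest difference among genes whose groups were apart. CD28, IDO1, JAK2, RLN1, CMTM6, SPOP and THBS1 were named after their values were seen. TNFRSF8, CD3D and CD3E also lie outside the naming rule, and HLA-B, HLA-C and HLA-F were in no list. Lists were described by counts and medians, with no set test. Alternatives were quantile normalization, centring, the mean of all probe sets, every probe set fitted, a filter on dim genes, other variance models, a replicate block and leaving out each array. CD33, PDCD1 and ITGB6 are not analysed here. Promoter sequences are those of RefSeq.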

Additional observations from a re-analysis of the deposited data

How the results depend on the processing

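Under the alternatives that keep all 4 arrays, 79 of 79 member values kept their direction and 0 members were called (lowest limma adjusted p = 0.286, for CD58 with the replicate block). Of these alternatives only quantile normalization, centring and the mean of all probe sets can change a difference. The others leave it as it is by design, so their values could not change direction. Without 1 array 34 of 40 member values kept their direction, with ranges of -0.46 to 1.21 for CD274, -0.56 to 0.72 for CD86, -0.17 to 0.26 for TGFB1 and -0.087 to 0.023 for PDCD1LG2. Over the same settings CD47 ranged from 0.24 to 0.65 and CD80 from 0.06 to 0.36. PDCD1LG2 gave no value among genes at or above the median mean. Over all genes 0 were called, 3 with trend and robust moderation, 72 with the replicate block and 0 to 1 without 1 array. The titles tie a replicate number to no shared batch. Deviations of same-numbered arrays from their group means correlated at r = 0.648 over 19775 genes, with only 2 pairs, so the block is an alternative here. With it the limma adjusted p was 0.0251 for PTPN1 (difference -1.10), 0.0297 for CD276 (1.06) and 0.0117 for CEACAM1 (1.94). The members' median of 0.076 was 0.0076 with the mean of all probe sets and -0.013 to 0.20 without 1 array. Groups were apart for 7 to 8 members without 1 array, where fewer arrays are compared and groups are apart more easily. The share of all genes was not counted there, so this count is no result about the members. Among genes at or above the median mean, medians were 0.13 for the other ligands, 0.026 for the receptors and -0.22 for the TGF-beta list. LTBP4 was 0.043 with the mean of all probe sets. Without 1 array the medians were -0.048 to 0.086 for the genes around CD274, -0.14 to 0.019 for the other ligands, -0.070 to -0.044 for the receptors, -0.059 to 0.00046 for the PD-L1 regulators and -0.14 to -0.021 for the TGF-beta list. Causes of these shifts were not tested.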
